A study of Mus musculus with 7 samples.

Results

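The genes that encode histone, DNA and RNA demethylases were examined, together with their closest oxygenase relatives. They were taken by name from the protein-coding genes of the mouse annotation: every gene whose symbol begins with Kdm or Alkbh and a digit, Tet1, Tet2 and Tet3, Fto, Jmjd6, Jmjd7 and Jmjd8. This rule kept 33 of the 55401 genes in the table, which held 21897 protein-coding genes. The rule itself used names and protein-coding status, not expression, although earlier results of these data were known when it was set.

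Most of these enzymes belong to a single superfamily. They bind Fe(II) in the active site, split molecular oxygen, and use α-ketoglutarate, a metabolite of the citric acid cycle, as the second substrate. Where such an enzyme removes a methyl group directly, the group is hydroxylated and then leaves as formaldehyde. Oxygen is therefore a substrate of the reaction, and succinate, fumarate and hydroxyglutarate compete with α-ketoglutarate. Kdm1a and Kdm1b work differently, since they use a flavin cofactor, although they too pass electrons to oxygen. Several members, among them Kdm3a, Kdm4b, Kdm4c and Alkbh5, are known as genes induced by the hypoxia-inducible factor (HIF), the transcription factor that is stabilized when oxygen is low.

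RNA came from the right lung lobes of 4 mice given bleomycin (BLM) and 3 mice given bleomycin and then hyperbaric oxygen (BLM+HBO). All were male C57BL/6 mice, aged 6 to 8 weeks, and all had received bleomycin, an antibiotic that injures the lung and leads to fibrosis. HBO, which is oxygen breathed under pressure, was given at 2.5 ATA for 90 min on each of 14 days from day 7, and lungs were taken on day 21. The sample records place the BLM mice in the chamber without pressurized oxygen, whereas the supplementary methods call them untreated, and no mouse without bleomycin was analysed here.

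Each mouse gave 1 library, with between 18157161 and 26365969 counted reads. Levels are given as CPM, the counts relative to the depth of the library, scaled by the TMM factors of edgeR, or, where genes are compared with each other, as length-scaled CPM (FPKM), which is the CPM divided by the exonic length in kilobases. The members took between 0.123% and 0.143% of the reads in the BLM mice and between 0.140% and 0.144% in the BLM+HBO mice. Markers of lung epithelium and endothelium were present in every library, with a summed level of 14960 to 27834 CPM in BLM and 21214 to 45655 CPM in BLM+HBO. On the first principal component of all genes, which held 37.3% of the variance, BLM+HBO 2 lay nearest to the BLM mice. P-values set the difference between the groups against the spread of these 7 mice within their groups.

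The demethylase genes differed little between the lungs of BLM+HBO and BLM mice. Of the 31 members with enough reads to test, 16 were higher and 15 lower in BLM+HBO, and the median log2 fold change was 0.018, beside 0.0071 over all 17465 genes tested. None of the 31 reached an unadjusted P below 0.05 in edgeR's quasi-likelihood test, whereas 1861 genes, or 10.7% of all genes tested, did. Among the 11406 genes tested whose mean level lay within the range of the members, 3.75 to 120.6 CPM, the share was also 10.7%. None passed P below 0.05 with a fold change above 1.5, the limits of the study, against 6.29% of all genes. No gene of any kind passed an adjusted P below 0.05 (0.0%) by edgeR, and the lowest adjusted P among the members was 0.4996. DESeq2 called 128 genes at an adjusted P below 0.05 and limma-trend called 0, and neither tool gave any member an unadjusted P below 0.05.

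The log2 fold changes of 28 of the 31 members lay within 0.2 of 0. Their median size was 0.10 on the log2 scale, beside 0.17 over all genes tested and 0.14 over the genes of the same range of levels. The standard errors ran from 0.096 to 0.31, with a median of 0.14. For 25 of the 31 members the 95% interval stayed within a fold change of 1.5 in either direction, as it did for 47.1% of all genes and for 60.4% of the genes of the same range of levels. The other 6 were Alkbh1, Alkbh2, Alkbh7, Jmjd8, Kdm7a and Tet1, for which the interval reached beyond 1.5-fold. Within a group, the members' median coefficient of variation was 11.4% in BLM and 9.85% in BLM+HBO, beside 15.9% and 15.8% over all genes tested and 13.3% and 13.2% over the genes of the same range of levels.

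**Figure D1:**
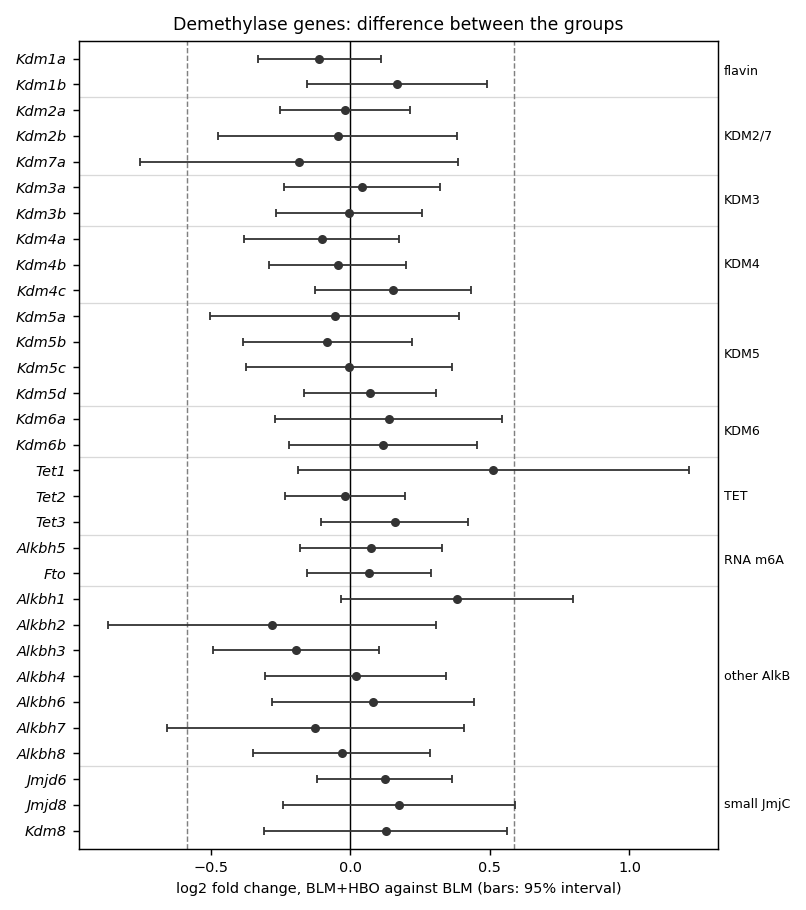
Log2 fold change of BLM+HBO against BLM for the 31 demethylase genes tested, with 95% intervals derived from the F statistic of edgeR's test. Genes are grouped by family and dashed lines mark a fold change of 1.5 in either direction. Every interval crosses 0, and 25 of the 31 stay between the dashed lines.

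The members spanned a wide range of levels per length, and their order was nearly the same in both groups (Spearman's rho 0.983 across the 31 members, which share the same libraries). Alkbh5 led with a mean of 20.1 FPKM over the 7 mice, followed by Kdm4a at 14.0, Kdm1a at 13.1, Kdm6b at 12.1 and Kdm5c at 11.6 FPKM. The lowest mouse for Alkbh5, at 17.1 FPKM, was above the highest mouse for any other member. From Kdm4a to Kdm5c the mice overlapped, so that the order among these 4 genes was not separated from their spread. Tet1 stood at the other end with 0.243 FPKM, and its highest mouse, at 0.382 FPKM, lay below every mouse of every other tested member. Kdm2b (1.70 FPKM), Alkbh8 (1.84 FPKM), Kdm5d (1.92 FPKM) and Tet2 (2.13 FPKM) were the next lowest.

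**Figure D2:**
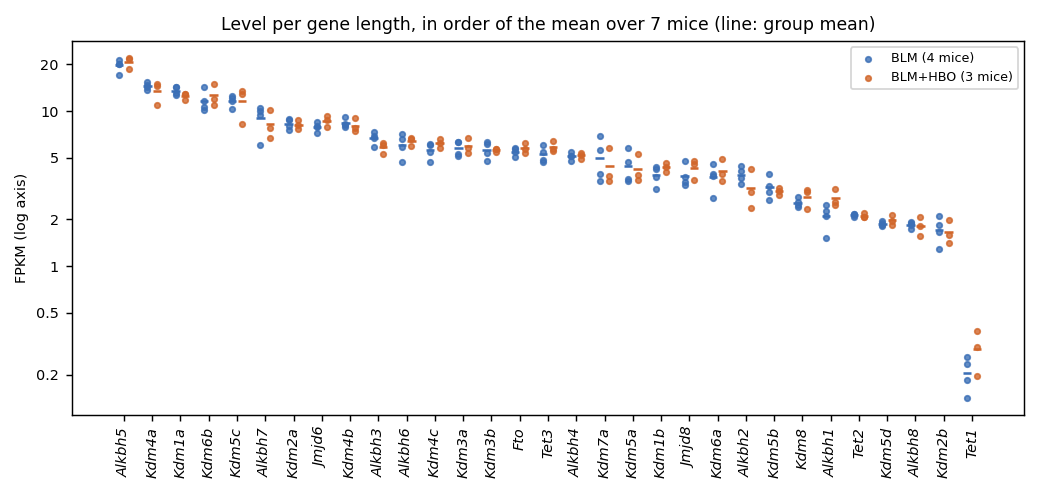
FPKM of the 31 tested demethylase genes in each mouse, on a log axis, ordered by the mean over the 7 mice; points are mice, blue for BLM and orange for BLM+HBO, and lines are group means. Alkbh5 at 20.1 FPKM stands above, and Tet1 at 0.243 FPKM below, the range of the other genes, and the colours overlap at nearly every gene.

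For each of the members named above as HIF target genes the groups overlapped, and none reached an unadjusted P below 0.05 in edgeR's test. Kdm3a (chr6:71588972-71632990, GRCm38) removes mono- and dimethyl marks from lysine 9 of histone H3. Its level was 51.7, 43.7, 42.3 and 51.7 CPM in BLM 1 to BLM 4 and 55.1, 47.2 and 43.9 CPM in BLM+HBO 1 to BLM+HBO 3. The highest mouse was thus a BLM+HBO mouse, but the other two lay inside the BLM range, and the log2 fold change was 0.042 (SE 0.12, edgeR adjusted P = 0.932). Its relative Kdm3b, which acts on the same marks, was at 67.1 to 89.1 CPM in BLM and 76.5 to 80.6 CPM in BLM+HBO. The log2 fold change of Kdm3b was -0.0047.

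Kdm4b (chr17:56326062-56402870) and Kdm4c (chr4:74242497-74405860) remove trimethyl marks from lysine 9 and lysine 36 of histone H3. Kdm4b was at 38.7, 44.5, 39.5 and 40.2 CPM in the BLM mice and 38.1, 36.4 and 43.8 CPM in the BLM+HBO mice, which gave a log2 fold change of -0.045 (SE 0.11, edgeR adjusted P = 0.914). Kdm4c was at 35.0, 31.8, 27.2 and 35.7 CPM in BLM and 38.5, 36.1 and 33.6 CPM in BLM+HBO, which gave a log2 fold change of 0.15 (SE 0.12, edgeR adjusted P = 0.677). For Kdm4c, 2 of the BLM+HBO mice were above all 4 BLM mice and BLM+HBO 3 was within their range. For Kdm4b, BLM+HBO 1 and BLM+HBO 2 were below all 4 BLM mice and BLM+HBO 3 was within their range. Kdm4a, the most abundant of the family, was at 78.5 to 89.0 CPM in BLM and at 63.6, 83.2 and 86.7 CPM in BLM+HBO, so that its log2 fold change of -0.10 came with a low value in BLM+HBO 1. Without that mouse the log2 fold change of Kdm4a was 0.023. Kdm4d, a testis-enriched member, had 3, 5, 6 and 5 reads in BLM and 3, 6 and 2 reads in BLM+HBO, too few to test. Of the summed FPKM of Kdm4a, Kdm4b and Kdm4c, Kdm4a made up 49.9%, Kdm4b 29.2% and Kdm4c 20.9% on average.

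The RNA demethylases Alkbh5 and Fto remove the methyl group from N6-methyladenosine in messenger RNA. Alkbh5 (chr11:60536381-60558512), the HIF target of this pair, was at 128.4, 120.0, 102.3 and 121.0 CPM in the BLM mice and 111.9, 132.0 and 128.6 CPM in the BLM+HBO mice. Its log2 fold change was 0.074 (SE 0.11, edgeR adjusted P = 0.845), with an interval from 0.883-fold to 1.26-fold. Fto (chr8:91313525-91668439) was at 66.1, 75.2, 73.9 and 70.5 CPM in BLM and 69.7, 80.7 and 73.9 CPM in BLM+HBO. The log2 fold change of Fto was 0.067 (SE 0.099, edgeR adjusted P = 0.841), and its interval ran from 0.898-fold to 1.22-fold. Both genes overlapped between the groups. Alkbh5 gave 78.2% of their summed FPKM on average, from 75.1% to 80.9% in BLM and from 77.8% to 79.1% in BLM+HBO.

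HIF binds DNA at a core of ACGTG or GCGTG, and the 250 bases before the RefSeq start site (GRCm38.p6) were searched for ACGTG and its reverse complement CACGT and for GCGTG and its reverse complement CACGC. Of the 33 members 28 had a promoter in the RefSeq table, Kdm2a, Kdm3b, Kdm4b, Kdm5a and Kdm6b being the others. Either core was found in 14 of the 28, beside 38.6% of the 32851 promoters in the table. ACGTG or its complement was found in 8 of the 28 (28.6%), beside 16.6% of all promoters, and GCGTG or its complement in 11 (39.3%), beside 28.2%. For each member only the promoter nearest the annotated gene start was used, whereas the background held every promoter in the table. For Tet1 and Tet3 that promoter lay 21672 and 17406 bases from the gene start, and neither held a match. These short cores occur often, and a match is only a match of letters. As examples, the windows of Kdm3a and Alkbh5, the HIF target genes with a match, and of Tet2 are shown on the strand of the gene, with the core in capitals. The promoter of Kdm4c held no match, and that of Kdm1b, which held 4, is not shown. The core of Kdm3a ended 22 bases before the RefSeq start, that of Alkbh5 57 bases before it, and that of Tet2 11 bases before it. In GENCODE vM21 all 3 lay within the gene, in an exon of the untranslated region for Kdm3a and in an intron of a longer transcript for Alkbh5 and Tet2.
Kdm3a, chr6:71632928-71632956, minus strand: ccgggaggctgtGCGTGtcttgtgagaga
Alkbh5, chr11:60537609-60537637, plus strand: tgtttgcccaacGCGTGgccggcagtcca
Tet2, chr3:133544391-133544418, minus strand: tcgcatgccagtCACGTccgccccctcg
The groups overlapped for Kdm3a and Alkbh5, with a match, and for Kdm4c, without one.

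The flavin enzymes had fold changes of opposite sign, neither past an unadjusted P below 0.05 in edgeR's test. Kdm1a (chr4:136550540-136602723), also known as LSD1, removes mono- and dimethyl marks from lysine 4 of histone H3 within repressor complexes, and Kdm1b (chr13:47043499-47085279) is its relative in gene bodies. Kdm1a was at 74.0, 65.5, 67.5 and 73.5 CPM in the BLM mice and 60.7, 67.1 and 67.0 CPM in the BLM+HBO mice, which gave a log2 fold change of -0.11 (SE 0.098, edgeR adjusted P = 0.707). Kdm1b was at 23.1, 20.7, 17.2 and 24.1 CPM in BLM and 25.5, 22.1 and 24.0 CPM in BLM+HBO, which gave a log2 fold change of 0.17 (SE 0.14, edgeR adjusted P = 0.705). Each gene by itself overlapped between the groups. The share of Kdm1b in the summed FPKM of the pair was 19.4% to 23.6% in BLM and 23.7% to 28.4% in BLM+HBO, so that the shares did not overlap, with a gap of less than 1 percentage point between BLM 4 and BLM+HBO 2. This was the only share that did not overlap among 7 families examined, it was noticed after the values were seen, and it was given no test. Of the exonic bases of Kdm1b, 9.19% also belong to Dek on the opposite strand.

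Tet1, Tet2 and Tet3 oxidize 5-methylcytosine in DNA, the first step of active DNA demethylation. Tet1 (chr10:62804570-62908996) had the largest fold change of the 31 members, at a low level. It was at 3.63, 4.00, 2.196 and 2.84 CPM in the BLM mice and at 5.91, 3.02 and 4.65 CPM in the BLM+HBO mice. BLM+HBO 1 and BLM+HBO 3 were above all BLM mice, and BLM+HBO 2 was between them. The log2 fold change was 0.51 (SE 0.31, edgeR adjusted P = 0.582), with an interval from 0.878-fold to 2.32-fold. Without BLM+HBO 2 it was 0.73, and Tet1 was then the only member past an unadjusted P below 0.05 in edgeR's test, in a comparison in which 15.9% of the genes tested passed. Without BLM+HBO 1 the log2 fold change of Tet1 was 0.28, the lowest of the values without 1 mouse.

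Tet2 (chr3:133463679-133545139) was the steadiest of the 3. It was at 36.8, 36.1, 34.9 and 36.9 CPM in BLM and 37.2, 34.8 and 34.9 CPM in BLM+HBO, which gave a log2 fold change of -0.021 (SE 0.096, edgeR adjusted P = 0.956), with an interval from 0.849-fold to 1.14-fold. Tet3 was at 78.6 to 101.1 CPM in BLM and 92.1, 95.2 and 106.6 CPM in BLM+HBO. The log2 fold change of Tet3 was 0.16 (edgeR adjusted P = 0.648), with the groups overlapping. Tet3 made up 69.8% of the summed FPKM of the family, Tet2 27.1% and Tet1 3.06% on average, so that the fold change of Tet1 concerned a small part of the TET transcripts.

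The other AlkB homologues repair or modify DNA, RNA and protein. Alkbh1 (chr12:87425840-87444017), which acts on methylated tRNA and in mitochondria, was the only tested member whose groups did not overlap, against 8.77% of all genes tested. It was at 13.88, 9.98, 16.31 and 14.95 CPM in the BLM mice and at 16.34, 20.53 and 16.99 CPM in the BLM+HBO mice. The gap between BLM 3 and BLM+HBO 1 was thus a few hundredths of a CPM, and with RLE size factors in place of TMM the groups overlapped. The log2 fold change was 0.38 (SE 0.18, edgeR adjusted P = 0.4996), with an interval from 0.977-fold to 1.74-fold. Without BLM 3 it was 0.47 and past an unadjusted P below 0.05 in edgeR's test, in a comparison in which 12.0% of the genes tested passed. Without BLM 2 the log2 fold change of Alkbh1 was 0.25 and without BLM+HBO 2 it was 0.27, neither past that limit.

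Alkbh2 and Alkbh3, which reverse alkylation damage in DNA, both had negative fold changes. Alkbh2 was at 4.90, 3.78, 4.12 and 4.58 CPM in BLM and 2.66, 4.69 and 3.37 CPM in BLM+HBO, with a log2 fold change of -0.28 (edgeR adjusted P = 0.729). Alkbh3 was at 18.5 to 23.1 CPM in BLM and 16.6 to 19.8 CPM in BLM+HBO, with a log2 fold change of -0.19 (edgeR adjusted P = 0.621), and its interval ran from 0.711-fold to 1.08-fold. BLM+HBO 1 and BLM+HBO 3 were below all BLM mice for Alkbh2, whereas BLM+HBO 2 was within their range. The remaining homologues overlapped between the groups. They were Alkbh4, which demethylates actin (log2 fold change 0.018), Alkbh6 (0.081), the mitochondrial Alkbh7 (log2 fold change -0.13) and Alkbh8, which modifies the wobble base of tRNA (log2 fold change -0.032).

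Demethylases of lysine 4 of histone H3 make up the KDM5 family. Kdm5c, on the X chromosome, gave 55.1% of the family's summed FPKM, Kdm5a 20.7%, Kdm5b 14.96% and Kdm5d, on the Y chromosome, 9.22%. Kdm5c was at 88.5, 81.9, 73.5 and 86.5 CPM in BLM and at 59.0, 92.0 and 95.7 CPM in BLM+HBO. The BLM+HBO mice thus lay on both sides of the BLM range, the log2 fold change was -0.0053, and without BLM+HBO 1 it was 0.18. The log2 fold changes of Kdm5a, Kdm5b and Kdm5d were -0.057, -0.082 and 0.069.

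Kdm6b (chr11:69398508-69413675), also known as JMJD3, removes the repressive trimethyl mark from lysine 27 of histone H3 and is induced in activated macrophages. It was at 80.4, 73.9, 70.2 and 99.0 CPM in the BLM mice and 76.2, 83.2 and 103.7 CPM in the BLM+HBO mice, which gave a log2 fold change of 0.12 (SE 0.15, edgeR adjusted P = 0.812). The highest BLM mouse was above 2 of the BLM+HBO mice. Kdm6a, its X-linked relative, was at 23.0 to 38.4 CPM in BLM and 29.9 to 41.3 CPM in BLM+HBO, with a log2 fold change of 0.14. Kdm6b gave 75.4% of their summed FPKM.

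Kdm2a and Kdm2b, which act on lysine 36 of histone H3, had log2 fold changes of -0.019 and -0.046. Kdm7a, a demethylase of lysines 9 and 27, varied widely between mice of both groups. It was at 69.7, 56.1, 35.4 and 39.4 CPM in BLM and 58.5, 38.6 and 35.6 CPM in BLM+HBO, which gave a log2 fold change of -0.18 with an interval from 0.594-fold to 1.31-fold. Among the small JmjC proteins, the hydroxylases Jmjd6 and Kdm8 had log2 fold changes of 0.12 and 0.13, and Jmjd8, a protein of the endoplasmic reticulum, one of 0.17. Of the exonic bases of Jmjd8, 39.3% also belong to other genes on the opposite strand, mainly Stub1, and 29.5% of those of Alkbh2 belong to Usp30. Reads that overlap more than 1 gene were not counted, so the levels of these genes rest on the remaining bases. Jmjd7 had 0, 1, 3 and 3 reads in BLM and 4, 7 and 6 reads in BLM+HBO, which did not overlap but were too few to test. The readthrough gene Gm28042 covers 66.7% of its exonic bases.

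Some members shared a pattern in the spread between mice. Kdm7a, Kdm5a and Kdm6a were all highest in BLM 1 and BLM+HBO 1, at 81.9 and 74.7 CPM for Kdm5a beside 49.8 to 66.4 CPM in the other 5 mice. Alkbh7, the shortest member with 1029 exonic bases, was lowest in the same mice, at 6.22 and 6.92 CPM beside 8.04 to 10.8 CPM. Not all members followed. Alkbh2, with 1115 exonic bases, was highest in BLM 1 (4.90 CPM) and lowest in BLM+HBO 1 (2.66 CPM), and Kdm5c was lowest in BLM+HBO 1 (59.0 CPM). The pattern was not particular to the members. Jmjd1c, a JmjC relative outside the rule, was at 103.8 CPM in BLM 1 and 98.8 CPM in BLM+HBO 1, beside 66.5 to 88.5 CPM elsewhere. Across the 31 members, exonic length and the deviation of a mouse from the mean of all 7 mice had a Spearman's rho of 0.41 in BLM 1 and 0.34 in BLM+HBO 1. In BLM 3 rho was -0.54. Over all genes tested the same values were 0.16, -0.048 and -0.27. These are descriptions across genes of 1 library, and the part of transcript length in the differences between mice was not tested. The median member stood 0.12 below the mean of the 7 mice in BLM 3 on the log2 scale, and within 0.037 of it in the other 6 mice.

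**Figure D3:**
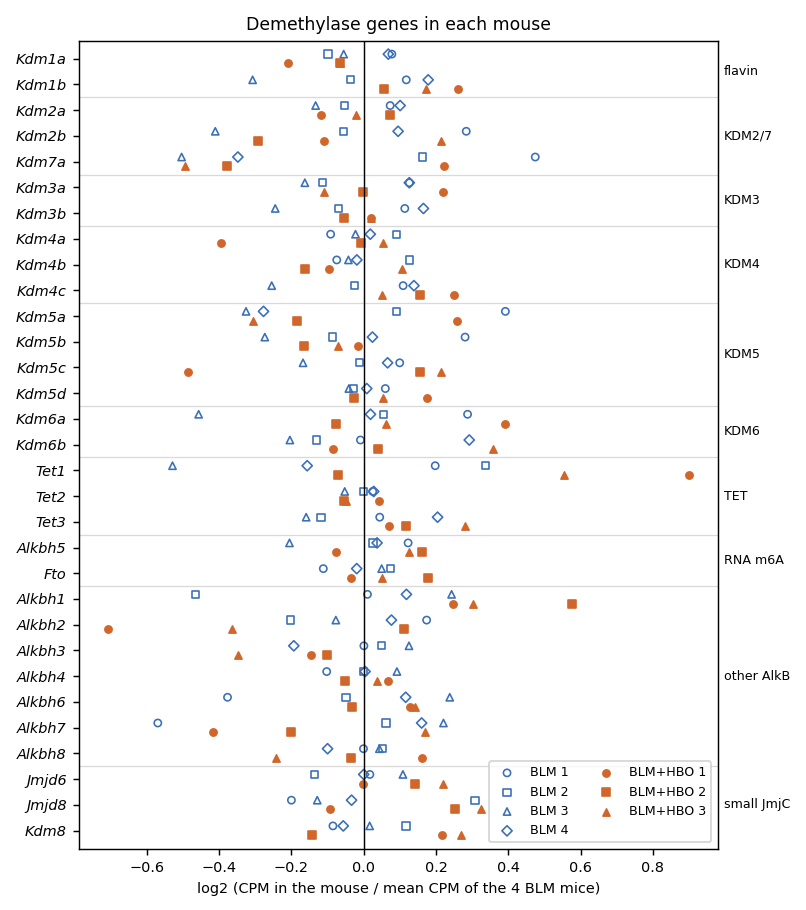
Level of each tested demethylase gene in each mouse, as log2 of its CPM over the mean CPM of the 4 BLM mice; open blue symbols are BLM mice, filled orange symbols BLM+HBO mice, and the symbol's shape gives the mouse. The colours mix at every gene but Alkbh1, and Kdm7a, Kdm5a and Kdm6a are highest in BLM 1 and BLM+HBO 1 (circles).

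The genes around the demethylases also differed little between the groups. In 9 lists, 72 genes were examined and all were tested: JmjC relatives that the rule left out, the HIF hydroxylases, methyltransferases for lysines 4, 9, 27 and 36 of histone H3, DNA methyltransferases, writers and readers of N6-methyladenosine, and enzymes that make or consume α-ketoglutarate and its competitors. None reached P below 0.05 in edgeR's test, against 10.7% of all genes tested. Of the 72, 40 were higher and 32 lower, and the median size of the log2 fold change was 0.082. The smallest P was that of Mettl3, the catalytic subunit of the N6-methyladenosine writer. Mettl3 was at 14.4, 14.6, 14.9 and 17.4 CPM in BLM and 17.3, 19.5 and 19.7 CPM in BLM+HBO (log2 fold change 0.29, edgeR adjusted P = 0.471). BLM 4 was above the lowest BLM+HBO mouse. Ezh1, a methyltransferase for lysine 27, was the only 1 of the 72 whose groups did not overlap, against 8.77% of all genes tested. Its level was 58.5 to 62.2 CPM in BLM and 65.9, 67.3 and 72.7 CPM in BLM+HBO (log2 fold change 0.19, edgeR adjusted P = 0.489). Of the HIF hydroxylases, which tag HIF for destruction or silence it when oxygen is present, Egln1 had a log2 fold change of 0.046 and Egln2 one of -0.076. Hif1an had one of -0.0054 and Egln3 one of -0.46 (edgeR adjusted P = 0.687), with 4.00 to 6.64 CPM in BLM and 3.35, 6.80 and 2.17 CPM in BLM+HBO.

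Several lists of cell type markers held genes at P below 0.05 between the same libraries. Of all 17465 genes tested, 893 were higher and 968 lower at that limit in edgeR's test, 10.7% in either direction. Of 9 heart muscle markers tested 8 were higher in BLM+HBO at P below 0.05, led by Mb with a log2 fold change of 3.61, and the list summed to 63.2 to 175.2 CPM in BLM and 155.2 to 643.8 CPM in BLM+HBO. All 6 fibroblast markers were lower at P below 0.05, with a log2 fold change of -1.20 for Col1a1, the main collagen of scar tissue, and sums of 6257 to 10326 CPM in BLM and 2197 to 6679 CPM in BLM+HBO. Of 7 macrophage markers 4 were lower at P below 0.05, Marco most with -2.06, and 2 were higher, 0 of them at that limit. The macrophage list nevertheless summed to 5261 to 6786 CPM in BLM and 5984 to 8424 CPM in BLM+HBO. Of 7 T and B cell markers all were higher, 3 of them at P below 0.05 (Cd79a, Cd79b and Ms4a1, all of B cells), with sums of 59.2 to 101.2 CPM in BLM and 92.4 to 185.3 CPM in BLM+HBO. All 6 markers of dividing cells were lower, 3 of them at P below 0.05, with sums of 176.9 to 212.9 CPM in BLM and 105.2 to 199.9 CPM in BLM+HBO. Of 8 epithelial and endothelial markers 7 were higher, 2 at P below 0.05, and of 4 plasma cell markers 3 were lower, 1 at P below 0.05. These last counts were too small to be read against the share over all genes. The 3 neutrophil, 3 adipocyte and 5 erythroid markers tested were all higher, 0 of them at P below 0.05. No marker of these 10 lists was at 0 in all libraries. None of these genes passed an adjusted P below 0.05 in edgeR. In bulk tissue, fewer cells of a type and less RNA per cell cannot be told apart, and the part of these shifts in the values of the demethylase genes was not tested.

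**Figure D4:**
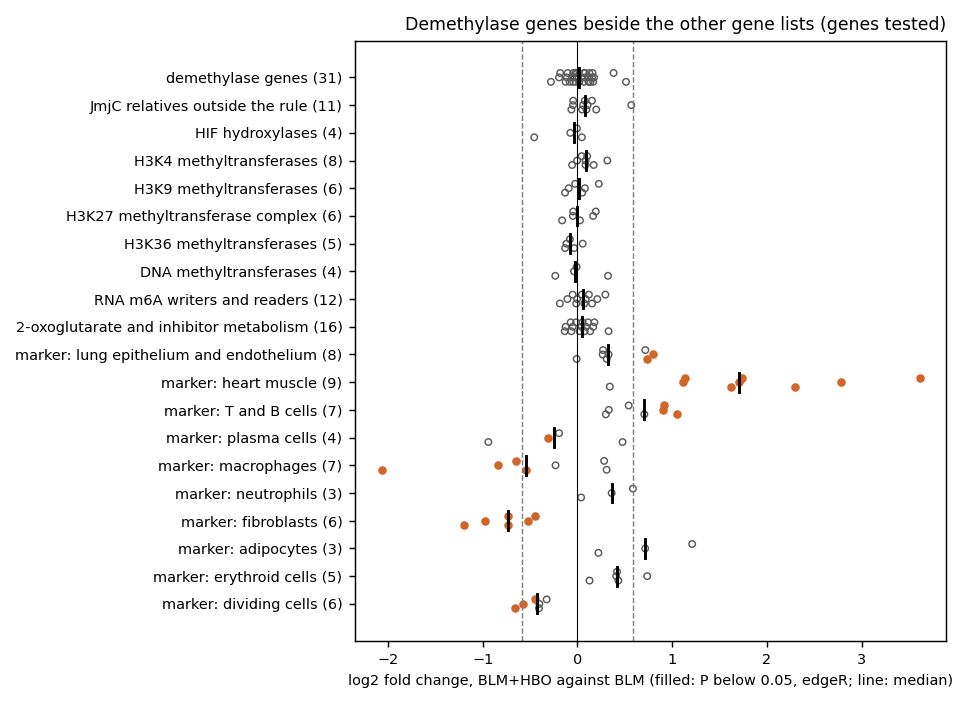
Log2 fold change of BLM+HBO against BLM for each tested gene of the demethylase group, the 9 surrounding lists and the 10 marker lists, with the number tested in brackets; filled points have P below 0.05 by edgeR, black lines are medians and dashed lines mark a fold change of 1.5. The 31 demethylase genes and the 72 surrounding genes hold no filled point, whereas 8 of 9 heart muscle and 6 of 6 fibroblast markers do. Of all genes tested, 10.7% had P below 0.05.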

How the data were processed

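The deposited table holds raw read counts per gene for 7 mice, with the exon coordinates and exonic length of each gene. In their supplementary methods the authors name Trim Galore for trimming, HISAT2 for alignment to the mouse build GRCm38, and featureCounts with its default options for the counts, which were deposited without normalization. The submitters' processing notes give 2.2.0 as the version of both HISAT2 and featureCounts, whereas the supplementary methods give a different version for featureCounts. The release of the annotation is not given in the sources used here. With these options strand is ignored, and a read is dropped when it aligns to more than 1 place or falls on more than 1 gene.

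Symbols came from GENCODE vM21, which shared the identifier and version of all 33 members. The filterByExpr filter, with a count minimum of 10 and a total minimum of 15, left 17465 genes, which were normalized by TMM and tested with edgeR 4.0.16 (quasi-likelihood, R 4.3.3), with BLM as reference. P-values were adjusted by Benjamini-Hochberg over all genes tested. Since edgeR's test gives no standard errors, each was approximated as the size of the log2 fold change over the square root of the F statistic. The intervals used these standard errors and a t distribution with the test's total degrees of freedom. Log2 values per mouse used a prior count of 2. DESeq2 1.42.0, the tool of the study, and limma-trend 3.58.1 were alternatives, beside other size factors, filters, robust empirical Bayes, a replicate block, other thresholds and leaving out each mouse. The scripts were tested on simulated data. Promoters were read with Python 3.11.15.

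The members and lists were chosen with earlier results of these data known. Full values were to be given for members at P below 0.05, members whose groups do not overlap, and Kdm3a, Kdm4b, Kdm4c, Alkbh5, Kdm1a, Kdm1b, Kdm6b, Tet2 and Fto, and up to 4 genes with the smallest P from each list. Tet1, Alkbh2, Kdm4a, Kdm5c, Kdm7a and the mouse-to-mouse pattern were added after their values were seen, as were the share of genes within the members' range of levels and the comparison of intervals with a fold change of 1.5. Libraries of the same group differed by more than sampling noise, with a mean chi-square per gene of 22.1 to 64.3 for each pair (genes with 20 or more reads in the pair). For BLM+HBO 2 the values were 13.0 to 34.3 with the BLM mice, lower than the 64.3 and 57.5 with BLM+HBO 1 and BLM+HBO 3. No column of values was left unassigned, no protein sequence was used here, and 1 marker gene is not reported here.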

Additional observations from a re-analysis of the deposited data

How the results depend on the processing

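The counts of members past P below 0.05, with or without the fold change limit, and past an adjusted P below 0.05 were 0 under every alternative that kept all 7 mice. Among these were DESeq2, limma-trend and robust empirical Bayes. A lower limit on the fold change, P below 0.01 and adjusted P below 0.1 also gave 0. Those 3 settings could give nothing else, since in the main edgeR fit no member was below P of 0.05 and the lowest adjusted P was 0.4996. Leaving out 1 mouse gave 0 to 1 members past P below 0.05 (Alkbh1 without BLM 3, Tet1 without BLM+HBO 2) and 0 to 1 also past the fold change of 1.5 (Tet1 without BLM+HBO 2). Without 1 mouse the log2 fold change ranged from 0.25 to 0.47 for Alkbh1 and from 0.28 to 0.73 for Tet1. The number of members whose groups do not overlap was 0 with RLE size factors, 2 with no filter on low counts, where Jmjd7 entered, and 1 to 4 without 1 mouse, where fewer mice make separation easier. The median log2 fold change stayed between -0.0079 and 0.060 over all alternatives, against a spread between mice of 0.060. The replicate block gave 0 members past P below 0.05 and a median of 0.060, and changed no call. The deviations of mice with the same number had correlations of -0.0080, -0.066 and 0.16, within the range of the other pairs, -0.18 to 0.17. So few pairs cannot show whether the numbers stand for a shared batch. The sign held in every setting for 15 of 31 members. It turned with upper-quartile factors for Kdm2a (0.0056), Kdm3b (0.021), Kdm5c (0.019) and Tet2 (0.0046), under the replicate block for Kdm2a (0.016) and Kdm3b (0.062), and with limma-trend for Kdm3b (0.0038). It also turned without 1 mouse for 15 members, whose values then ranged from -0.015 to 0.051 for Alkbh4, -0.026 to 0.17 for Alkbh6, -0.14 to 0.060 for Alkbh8, -0.070 to 0.027 for Kdm2a, -0.20 to 0.062 for Kdm2b, -0.056 to 0.11 for Kdm3a, -0.077 to 0.056 for Kdm3b, -0.19 to 0.023 for Kdm4a and -0.13 to 0.0081 for Kdm4b. The ranges were -0.24 to 0.10 for Kdm5a, -0.16 to 0.024 for Kdm5b, -0.13 to 0.18 for Kdm5c, -0.0061 to 0.25 for Kdm6a, -0.026 to 0.23 for Kdm6b and -0.44 to 0.017 for Kdm7a. The cause was not tested. With 4 and 3 mice, small differences were not detectable at the standard errors given, and Kdm4d and Jmjd7 had too few reads to test.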
